A study of Mus musculus with 25 samples.

Results

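The nuclear-encoded subunits of oxidative phosphorylation were followed across 25 mouse cortex libraries. Genes were taken by name from the deposited table, as protein-coding entries of the Nduf, Sdh, Uqcr, Cyc1, Cox4 to Cox8 and Atp5 families with at least 0.5 FPKM (fragments per kilobase of gene, scaled to sequencing depth) in at least 5 of 25 libraries. Of 54532 genes listed, 108 had such a name, 95 of these were protein coding, and 91 passed the level filter. These 91 members comprised 44 genes of complex I, 4 of complex II, 9 of complex III, 17 of complex IV and 17 of complex V. The name pattern also took in 8 assembly factors of complex I, the supercomplex factor Cox7a2l, placed here with complex IV, and Atp5s, placed with complex V, which are not subunits of the finished enzymes.

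Oxidative phosphorylation is the last stage of respiration, in which complexes I to IV of the inner mitochondrial membrane pass electrons to oxygen. Complexes I, III and IV pump protons, and complex V, the ATP synthase, uses the proton gradient to make ATP. Most subunits are encoded in the nucleus and imported, while a small set, among them the most hydrophobic subunits of complexes I, III, IV and V, is encoded in the mitochondrial genome, so that both genomes must be expressed to build each of these complexes. In cortex, neurons depend on this pathway for the ATP that ion pumping at synapses consumes.

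There were 5 groups of 5 mice. Wild-type mice received vehicle (WT_Veh) or high P (WT_HighP), and 5xFAD mice received vehicle (AD_Veh), low P (AD_LowP) or high P (AD_HighP). The 5xFAD line carries mutant human transgenes driven by the neuronal Thy1 promoter and models amyloid deposition, and P is a derivative of a natural product. The identity and doses of P and the age of the mice were not given in the sources used here. The labels name the tissue as brain and the series design as cortex.

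Libraries held 15518358 to 17698222 reads assigned to genes, recovered from the deposited values, and members took between 0.594% and 0.743% of them. All 8 excitatory neuron, 8 inhibitory neuron, 8 astrocyte, 8 oligodendrocyte and 8 microglia markers were among the 16450 genes tested, against 2 of 8 muscle markers. Transthyretin (Ttr), a choroid plexus gene, was at 484 to 820 FPKM in WT_HighP mice 1 and 2 and AD_HighP mice 1 and 4, and at most 58.2 FPKM in the other libraries, and results are given below with and without these 4. The 5 WT_Veh libraries also differed from the 5 WT_HighP libraries in how expression followed the GC content of genes. The slope, in log2 units per 10 GC points relative to the mean of all libraries, was -0.16 ± 0.16 in WT_Veh and 0.18 ± 0.053 in WT_HighP (SD, n = 5 each), and the lowest WT_HighP value of 0.104 lay above the highest WT_Veh value of 0.0783. Slopes in the 5xFAD groups also varied widely, from -0.268 to 0.122 in AD_Veh, -0.298 to 0.168 in AD_LowP and -0.0912 to 0.188 in AD_HighP. In bulk tissue, fewer cells of a type and less RNA per cell cannot be told apart.

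Mean levels of members ran from 0.564 to 235 FPKM. The highest mean levels over the 25 libraries belonged to Atp5a1 (235 FPKM), the alpha subunit of the catalytic head of ATP synthase, to Cox6a1 (233 FPKM) and Cox8a (227 FPKM), small subunits of cytochrome c oxidase, and to Atp5b (204 FPKM), the catalytic beta subunit. The median member stood at 27.5 FPKM. On the deposited gene lengths the median by complex was 17.9 FPKM in complex I, 44.1 in complex II, 52.1 in complex III, 44.3 in complex IV and 20.6 in complex V. The lowest member of complex I was Ndufab1, the mitochondrial acyl carrier protein, at 2.44 FPKM. Complex II, succinate dehydrogenase, ranged from the membrane anchor Sdhc at 20.1 FPKM to the flavoprotein Sdha at 76.2 FPKM. In complex III, cytochrome bc1, the small subunits Uqcrb (17.7 FPKM) and Uqcr10 (76.7 FPKM) marked the ends, and complex V ran from Atp5l, a membrane subunit, at 6.29 FPKM to Atp5a1.

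**Figure D1:**
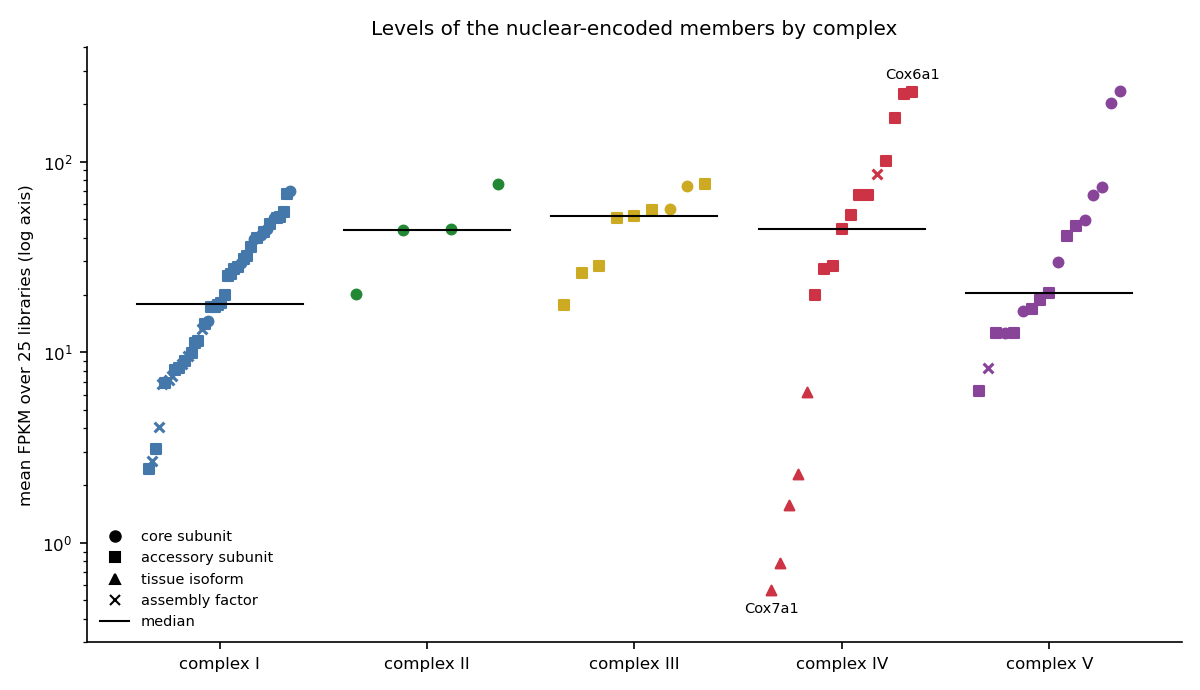
Mean FPKM over the 25 libraries (vertical log axis) of each of the 91 members, sorted by level within complexes I to V, with marker shapes for core subunits, accessory subunits, tissue isoforms and assembly factors and a line at each complex's median. Complexes II and III lie in a narrow band, whereas complex IV runs from Cox7a1 at 0.564 FPKM to Cox6a1 at 233 FPKM.

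The low end of complex IV was made up of isoforms known from other tissues and of Ndufa4l2. Ndufa4 and Ndufa4l2 are placed here with complex IV despite their names, and Ndufa4 stood 29.1-fold above Ndufa4l2 (2.30 FPKM). Cox4i1, the regulatory subunit found in most tissues, stood 108-fold above Cox4i2, known from lung. Cox6a1 stood 37.6-fold above the muscle isoform Cox6a2, Cox7a2 119-fold above the muscle isoform Cox7a1, and Cox6b1 129-fold above the testis isoform Cox6b2. The 2 members closest to the level filter were Cox7a1, at 0.5 FPKM or more in 12 libraries, and Cox6b2, in 16. Below it lay Cox7b2 (4 libraries), the muscle isoform Cox8b (1 library), the testis isoform Cox8c (0 libraries) and a second Atp5o identifier that is listed at 0 in every library. The 3 genes that encode the identical c-subunit of the ATP synthase rotor differed in level, with Atp5g3 at 49.4, Atp5g2 at 29.9 and Atp5g1 at 12.6 FPKM.

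Levels per gene depend on the length the authors divided by. The deposited gene length of members had a median of 1675 bp against 875 bp for the principal transcript in GENCODE, and in 27 members it was more than 2 times the transcript, up to 11.8 times in Atp5l. On principal transcript length Atp5b was highest, at 452 FPKM, and Atp5l stood at 74.4 rather than 6.29 FPKM. The order of the complexes changed too, with medians of 39.3 FPKM in complex I, 65.3 in complex II, 74.3 in complex III, 92.0 in complex IV and 74.4 in complex V. The ends named above also depended on the length. The lowest members on transcript length were Ndufb2 (3.98 FPKM) in complex I and Atp5s (10.5 FPKM) in complex V, and the highest were Uqcrc1 (127 FPKM) in complex III and Cox4i1 (343 FPKM) in complex IV. Close copies are a further limit, because 33 members had at least 1 pseudogene of 90% identity over 80% of the coding sequence, with 13 for Atp5l. Reads assigned to copies exceeded 10% of the gene's own reads in 5 members (Ndufa12, Ndufab1, Atp5h, Atp5l and Atp5g1), whose levels are therefore uncertain.

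Promoters were matched by symbol to RefSeq for 72 of the 91 members, in 77 windows of 250 bases before to 50 bases after the start on GRCm38.p6. Nuclear respiratory factor 1 and ETS-family factors (GABP) are known regulators of respiratory chain genes, so their core letters were searched on both strands. The NRF1 core GCATGCG (reverse CGCATGC) was present in 16.9% of member windows, against 5.82% of windows of tested genes and 3.58% of all windows. Of 72 matched members 13 held it, among them Sdhb, Cox6a1, Atp5g2, Atp5k, Atp5l, Uqcr11, Uqcrc1 and 5 genes of complex I. The ETS core CCGGAAG (reverse CTTCCGG) was in 23.4% of member windows, 15.4% of windows of tested genes and 8.86% of all. The YY1 core AAGATGG (reverse CCATCTT) was in 14.3%, 6.68% and 6.34%, and 8 of the 11 members with it belonged to complex I, where 39 of 44 genes were matched. TATAAA (reverse TTTATA) was in 7.79%, 7.29% and 13.6%. The NRF1 core overlaps its own reverse where the site is a palindrome, as in Cox6a1, and was then counted once per window. A match describes letters and not binding. Upstream stretches free of annotated exons are shown for 3 members called below and for the most abundant member with an NRF1 core, with NRF1 and ETS letters in capitals. The stretch of Ndufb6 lies at chr4:40279422-40279671, that of Cox8a at chr19:7217617-7217866, that of Uqcrh at chr4:116075072-116075268 and that of Cox6a1 at chr5:115348982-115349129, all on the minus strand of GRCm38.p6.
Ndufb6: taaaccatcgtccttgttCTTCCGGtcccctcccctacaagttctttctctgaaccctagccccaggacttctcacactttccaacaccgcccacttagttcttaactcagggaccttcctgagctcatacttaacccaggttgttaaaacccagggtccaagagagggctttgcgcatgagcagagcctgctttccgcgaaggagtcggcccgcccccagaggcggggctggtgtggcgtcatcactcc
Cox8a: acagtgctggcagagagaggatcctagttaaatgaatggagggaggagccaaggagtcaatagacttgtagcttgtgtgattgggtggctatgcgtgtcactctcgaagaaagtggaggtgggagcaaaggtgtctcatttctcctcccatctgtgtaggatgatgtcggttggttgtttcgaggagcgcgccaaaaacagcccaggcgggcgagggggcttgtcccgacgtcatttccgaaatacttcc
Uqcrh: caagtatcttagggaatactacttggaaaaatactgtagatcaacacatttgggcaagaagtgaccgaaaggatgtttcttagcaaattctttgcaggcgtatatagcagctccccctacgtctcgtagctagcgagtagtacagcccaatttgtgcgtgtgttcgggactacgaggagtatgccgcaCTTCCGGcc
Cox6a1: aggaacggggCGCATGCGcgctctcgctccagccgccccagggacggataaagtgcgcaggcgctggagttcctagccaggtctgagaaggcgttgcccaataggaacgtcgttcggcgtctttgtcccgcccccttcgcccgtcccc
In these stretches an ETS core stands far upstream in Ndufb6 and close to the start in Uqcrh, the NRF1 palindrome stands in Cox6a1, and the stretch shown for Cox8a holds neither. The full windows of Cox8a and Cox6a1 also hold an ETS core, outside the stretches shown.

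The effect of high P without the transgenes was examined by setting WT_HighP mice against WT_Veh mice. It is the comparison in which members were called at an adjusted p under 0.05 (limma, Benjamini-Hochberg over all 16450 genes). Of 91 members 11 were called, or 12.1%, against 3.17% of all tested genes, with 8 members higher and 3 lower. The higher ones were Ndufb6, Ndufb8 and Ndufa13 of complex I, Cyc1 of complex III, and Cox8a, Cox5a, Cox5b and Cox6b2 of complex IV. The lower ones were Ndufa5 of complex I, Uqcrh of complex III and Atp5mpl of complex V. Of all tested genes, 1.39% were called higher and 1.79% lower. Unadjusted p was under 0.05 for 42 members and for 4581 of 16450 genes. Groups did not overlap for 19 members (20.9%), 10 higher and 9 lower, against 9.42% of all genes. The median log2 fold change was 0.06 over members and 0.00 over all genes.

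The count of 11 was unstable. After removal of each library's smooth trend with GC content, fitted as a natural spline, it was 1, Ndufb6, against 0.0547% of all genes. With such trends in GC and gene length removed the count was 5. With no level filter it was 0, as over all 32752 genes then tested (42 members at unadjusted p under 0.05, limma). Without the 4 libraries high in Ttr it was 0, with fold changes of the 11 in the same direction, and over all genes 0 were called too (29 members at unadjusted p under 0.05). Leaving out single mice gave 31 without WT_Veh 1, 2 without WT_Veh 2, 4 without WT_Veh 3 and 10 without WT_HighP 5. It gave 0 without WT_Veh 4, WT_Veh 5 or any of WT_HighP 1 to 4. Counts over all genes are not given for single mice left out or for GC and length correction. These member counts therefore cannot be set against a background.

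**Figure D2:**
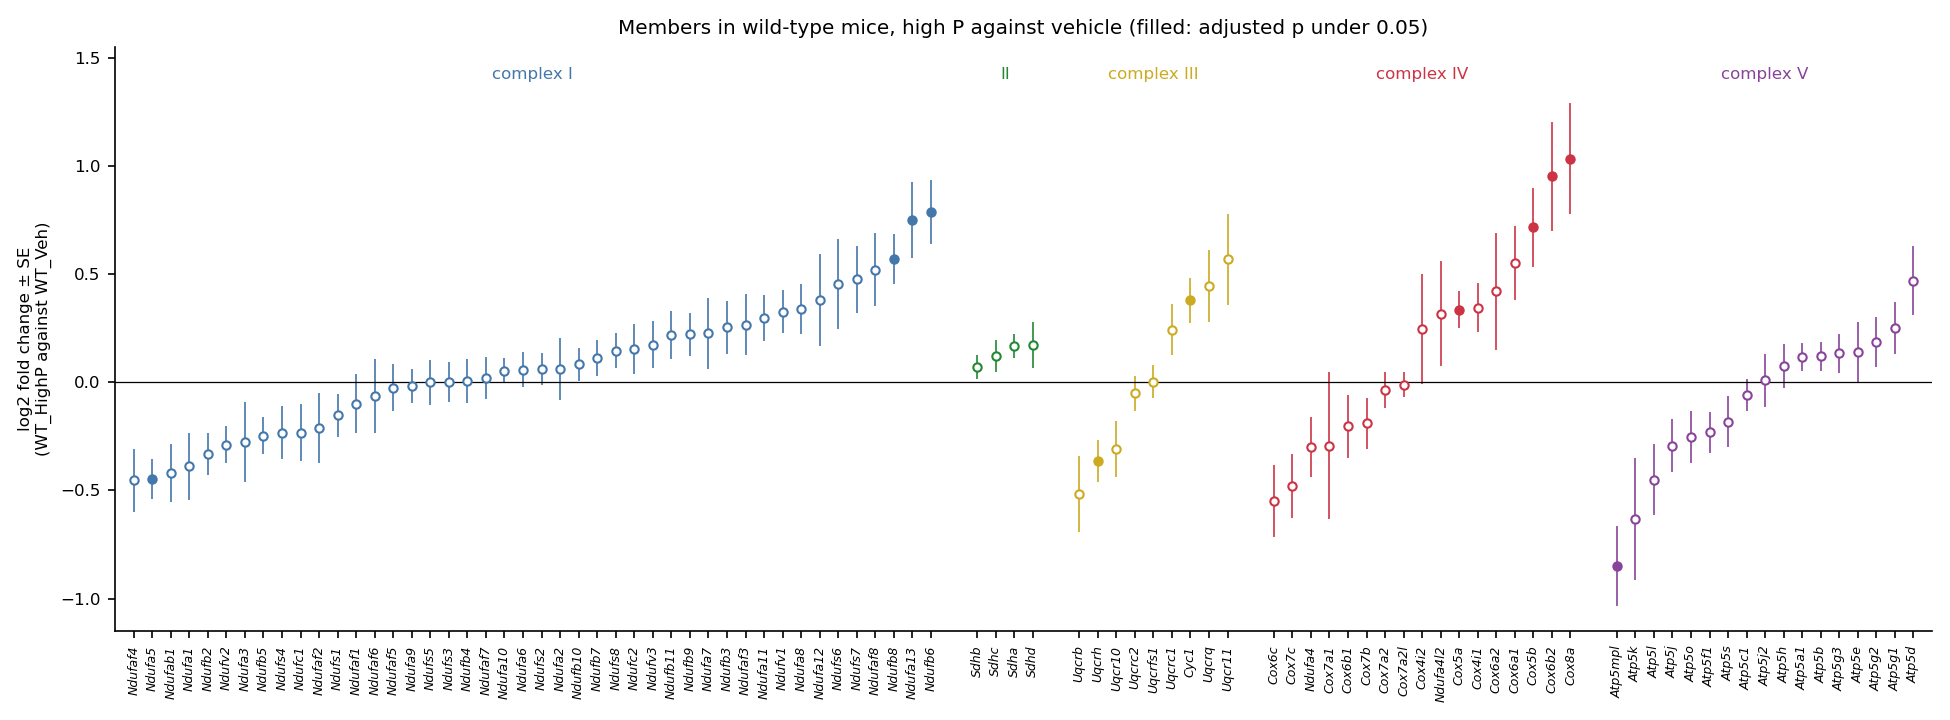
Log2 fold change of WT_HighP against WT_Veh (vertical axis, with SE from limma) for each of the 91 members, ordered by size within complexes I to V. Filled points are the 11 members called, with Cox8a highest at 1.03 and Atp5mpl lowest at -0.85.

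In complex I, the NADH dehydrogenase, 3 of 44 members were called higher and 1 lower, with a median log2 fold change of 0.06. Ndufb6 (ENSMUSG00000071014, chr4:40270591-40279421 in mm10) is an accessory subunit of the membrane arm. It measured 15.3, 15.7, 16.3, 10.1 and 14.6 FPKM in WT_Veh mice 1 to 5 and 24.2, 25.01, 24.3, 27.5 and 23.4 FPKM in WT_HighP mice 1 to 5. All WT_HighP values were above all WT_Veh values, and it rose by 0.79 on the log2 scale (SE 0.15, adjusted p = 0.0263, limma). After GC correction the value was 0.80 (adjusted p = 0.0387), and without the 4 libraries high in Ttr it was 0.80 with adjusted p = 0.298. An exon of Smim27 overlaps it on the other strand, and no source used here says whether counting used the strand.

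Ndufb8 (ENSMUSG00000025204, chr19:44548572-44555440), also of the membrane arm, measured 7.29, 6.69, 6.62, 5.28 and 6.32 FPKM in WT_Veh and 10.01, 10.9, 8.86, 10.03 and 9.08 in WT_HighP. Groups did not overlap (log2 0.57, SE 0.12, adjusted p = 0.0263), but the gene shares exon sequence on its own strand with Gm20538, which makes its level uncertain. Ndufa13 (chr8:69894180-69902558), a membrane arm subunit also known as the cell death regulator GRIM-19, measured 33.3, 26.7, 22.1, 20.9 and 17.4 FPKM in WT_Veh and 42.8, 43.7, 37.5, 43.0 and 33.5 in WT_HighP. Its lowest WT_HighP value barely exceeded the highest WT_Veh value, that of mouse 1 (log2 0.75, SE 0.18, adjusted p = 0.0362). Removal of the GC trend brought Ndufa13 to 0.34 (adjusted p = 0.212), and it is the second most GC-rich member at 60.4%. An exon of Tssk6 overlaps Ndufa13 on the opposite strand.

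Ndufa5 (chr6:24518666-24528013), an accessory subunit of the arm that reduces ubiquinone, went the other way. It measured 41.4, 48.1, 34.6, 37.9 and 43.1 FPKM in WT_Veh and 31.8, 30.7, 28.2, 32.4 and 26.0 in WT_HighP. The groups did not overlap, and it fell by 0.45 on the log2 scale (SE 0.093, adjusted p = 0.0269), or by 0.40 after GC correction (adjusted p = 0.073). The core subunits that carry electrons were not called. Ndufv1, which binds NADH, was at 39.0 ± 2.84 FPKM in WT_Veh and 49.0 ± 2.74 in WT_HighP (SD, n = 5). Its log2 fold change was 0.33 (adjusted p = 0.0572, limma) and ran from 0.0773 to 0.343 over 14 alternative ways of processing. Ndufs1, the largest iron-sulfur subunit, was at 15.6 ± 2.64 and 13.8 ± 0.595 FPKM (log2 -0.15, adjusted p = 0.325, limma). By module, medians were 0.12 over 10 genes of the NADH module, 0.03 over 6 of the ubiquinone module, 0.10 over 20 of the proton-pumping module and -0.04 over 8 assembly factors.

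Complex II has no subunit encoded in mitochondria. None of its 4 genes was called, yet all 4 had positive values with a median of 0.14. Sdha, the flavoprotein that oxidizes succinate, measured 71.9, 69.8, 71.0, 70.6 and 73.0 FPKM in WT_Veh and 82.2, 78.5, 77.3, 82.7 and 79.6 in WT_HighP. These groups did not overlap (log2 0.17, SE 0.055, adjusted p = 0.0709), and after GC correction the value was 0.23 (adjusted p = 0.137). The iron-sulfur subunit Sdhb was at 44.4 ± 1.22 and 46.7 ± 2.93 FPKM (log2 0.07, -0.07 after GC correction). Summed over the complex, levels were 176 to 180 FPKM in WT_Veh and 192 to 201 in WT_HighP, without overlap.

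In complex III, 1 of 9 members was called in each direction and the median was 0.00. Cyc1 (chr15:76343523-76346260), cytochrome c1, measured 57.0, 56.1, 48.5, 43.3 and 47.0 FPKM in WT_Veh and 62.2, 67.9, 64.2, 69.0 and 63.6 in WT_HighP, without overlap (log2 0.38, SE 0.10, adjusted p = 0.0494). Cyc1 has 59.9% GC, and after GC correction its value was -0.01 (adjusted p = 0.981). Uqcrh (chr4:116066965-116075071), the acidic hinge subunit that assists the docking of cytochrome c, measured 62.3, 69.6, 51.0, 71.0 and 56.1 FPKM in WT_Veh and 47.4, 45.05, 46.9, 48.8 and 50.4 in WT_HighP. The groups were separated narrowly, and it fell by 0.36 on the log2 scale (SE 0.098, adjusted p = 0.0466), or by 0.32 after GC correction (adjusted p = 0.17). Uqcrfs1, the Rieske iron-sulfur protein, was at 77.8 ± 6.35 and 77.8 ± 3.38 FPKM (log2 0.00).

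Complex IV, cytochrome c oxidase, held 4 of the 8 higher members among 17 genes, none lower, and a median of 0.25, the largest of the 5 complexes on the deposited values. It was 0.05 after GC correction and 0.085 without WT_Veh 3, and complex II then had the largest, at 0.16 and 0.14. Cox8a (chr19:7215158-7217616), one of its smallest subunits, measured 240, 175, 138, 125 and 113 FPKM in WT_Veh and 356, 361, 298, 343 and 228 in WT_HighP. The lowest WT_HighP mouse, 5, lay below the highest WT_Veh mouse, 1, so the groups overlapped although Cox8a had the largest rise of any member (log2 1.03, SE 0.26, adjusted p = 0.0423, and 0.68 with adjusted p = 0.192 after GC correction). WT_Veh 1 was the WT_Veh mouse with the highest GC slope (0.0783) and WT_HighP 5 the WT_HighP mouse with the lowest (0.104).

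Cox5b (chr1:36691449-36693681), a zinc-binding subunit on the matrix side, measured 30.3, 25.8, 16.8, 17.3 and 17.5 FPKM in WT_Veh and 38.9, 43.6, 29.9, 37.1 and 26.3 in WT_HighP. WT_Veh 1 again overlapped the treated mice (log2 0.72, SE 0.18, adjusted p = 0.0433). Its partner on the matrix side, Cox5a (chr9:57521274-57532426), measured 24.5, 27.6, 22.03, 25.4 and 25.9 FPKM in WT_Veh and 31.8, 31.5, 32.3, 34.6 and 28.5 in WT_HighP, without overlap. Cox5a differs from most higher members in its GC content, 44.4%, and its log2 fold change of 0.34 (SE 0.085, adjusted p = 0.0433) was 0.52 after GC correction (adjusted p = 0.0551) and was called with GC and length trends removed (adjusted p = 0.0421). Gm26631 overlaps it on the opposite strand.

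Cox6b2 (chr7:4751792-4753094), the testis isoform, was barely expressed, with 0.487, 0.817, 0.372, 0.267 and 0.219 FPKM in WT_Veh and 1.79, 1.80, 1.20, 0.955 and 0.806 in WT_HighP (log2 0.95, SE 0.25, adjusted p = 0.0459). WT_HighP 5 lay below WT_Veh 2. Of the other abundant common isoforms, Cox6a1 and Cox4i1 were not called, with Cox6a1 at 198 ± 37.3 and 293 ± 59.7 FPKM (log2 0.55, adjusted p = 0.0626) and Cox4i1 at 151 ± 20.2 and 191 ± 14.7 (log2 0.34, adjusted p = 0.0717). Over 14 alternative ways of processing, log2 values ran from 0.106 to 0.569 for Cox6a1 and from 0.129 to 0.361 for Cox4i1. Among the tissue isoforms, values were 0.42 for Cox6a2, 0.25 for Cox4i2 and -0.29 for Cox7a1 on the log2 scale, none called. At the low end of the complex stood Cox6c (log2 -0.55) and Cox7c (log2 -0.48), both with adjusted p = 0.0598, which are named here after their values were seen. For both genes WT_HighP lay below WT_Veh without overlap.

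In complex V no member was called higher and 1 of 17 lower. Atp5mpl (chr12:111961375-111966977), the 6.8 kDa proteolipid of the membrane part, measured 19.5, 31.2, 21.6, 19.5 and 22.1 FPKM in WT_Veh and 14.7, 11.1, 11.6, 12.8 and 11.2 in WT_HighP. The groups did not overlap, and Atp5mpl fell by 0.85 on the log2 scale (SE 0.19, adjusted p = 0.034), or by 0.83 after GC correction (adjusted p = 0.073). The catalytic head showed small positive values, 0.12 for both Atp5a1 and Atp5b, and a median of 0.12 over its 5 genes. Medians were 0.19 over the 3 rotor ring genes (0.25 for Atp5g1, 0.19 for Atp5g2 and 0.13 for Atp5g3), -0.24 over 4 peripheral stalk genes and -0.54 over 4 membrane genes. The membrane part kept a median of -0.49 after GC correction.

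**Figure D3:**
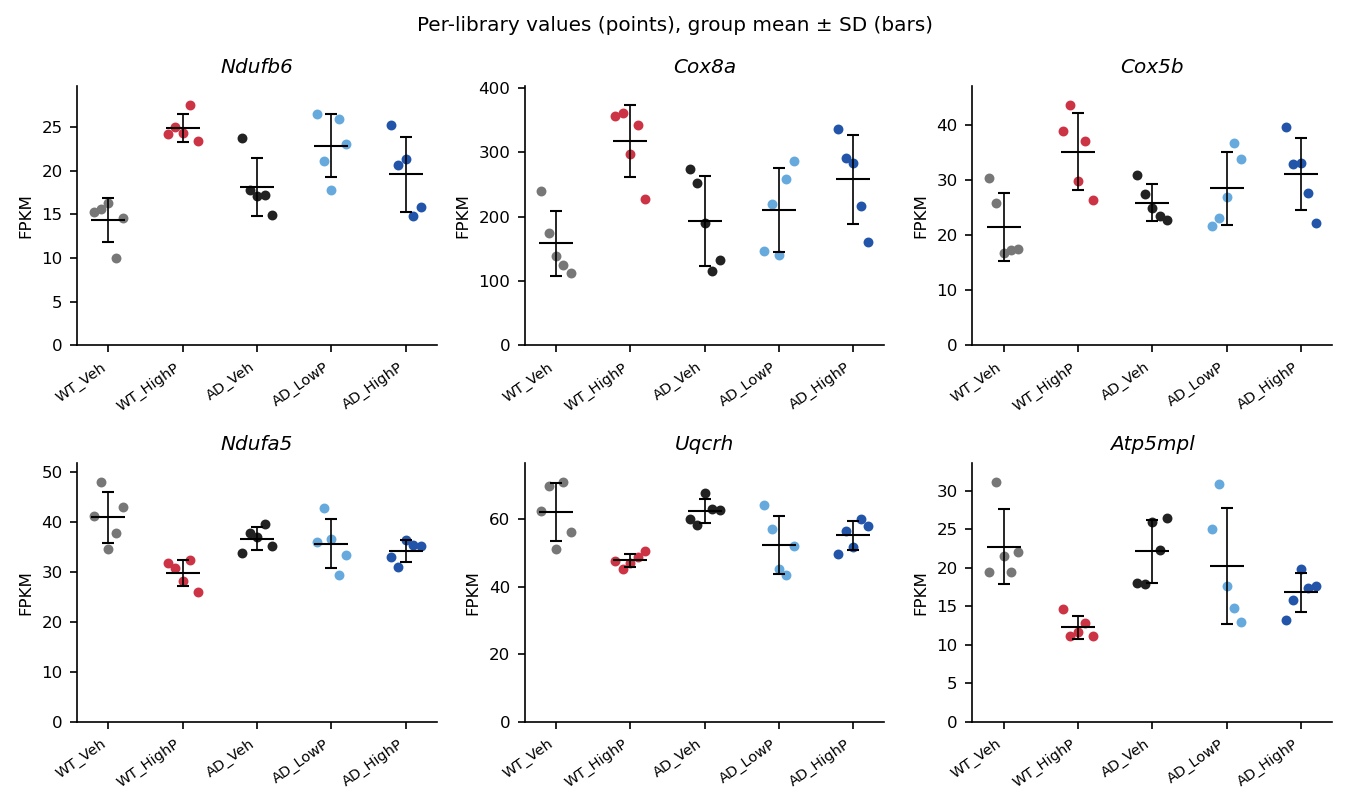
FPKM (vertical axes from 0) of 6 members in each of the 25 libraries, with points for mice 1 to 5 of a group from left to right and bars for the group mean and SD. Ndufb6, Ndufa5, Uqcrh and Atp5mpl show no overlap between WT_Veh and WT_HighP, while Cox8a and Cox5b do, and the 5xFAD groups overlap for each of the 6 genes.

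Fold changes of the members in WT_HighP followed the GC content of the gene. Across the 91 members, which share libraries, Spearman's rho was 0.647, and 0.17 after GC correction. Of 21 members with at least 55% GC, 19 had positive values, and of 15 with at most 45% GC, 13 had negative ones. Of the 55 in between, 34 were positive. The other comparisons, which share groups with this one or with each other, had values of 0.538 for high P against vehicle in 5xFAD mice (0.104 after GC correction), 0.449 for high against low P (0.00526), 0.427 for AD_Veh against WT_Veh (0.0369) and 0.0846 for low P against vehicle (0.12). For the interaction it was -0.565, and -0.137 after GC correction. Complexes had similar median GC content, from 49.4% in complex V to 52.8% in complex IV, so that the range within a complex, such as 42.6% to 60.9% in complex IV, was wider than that between them.

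**Figure D4:**
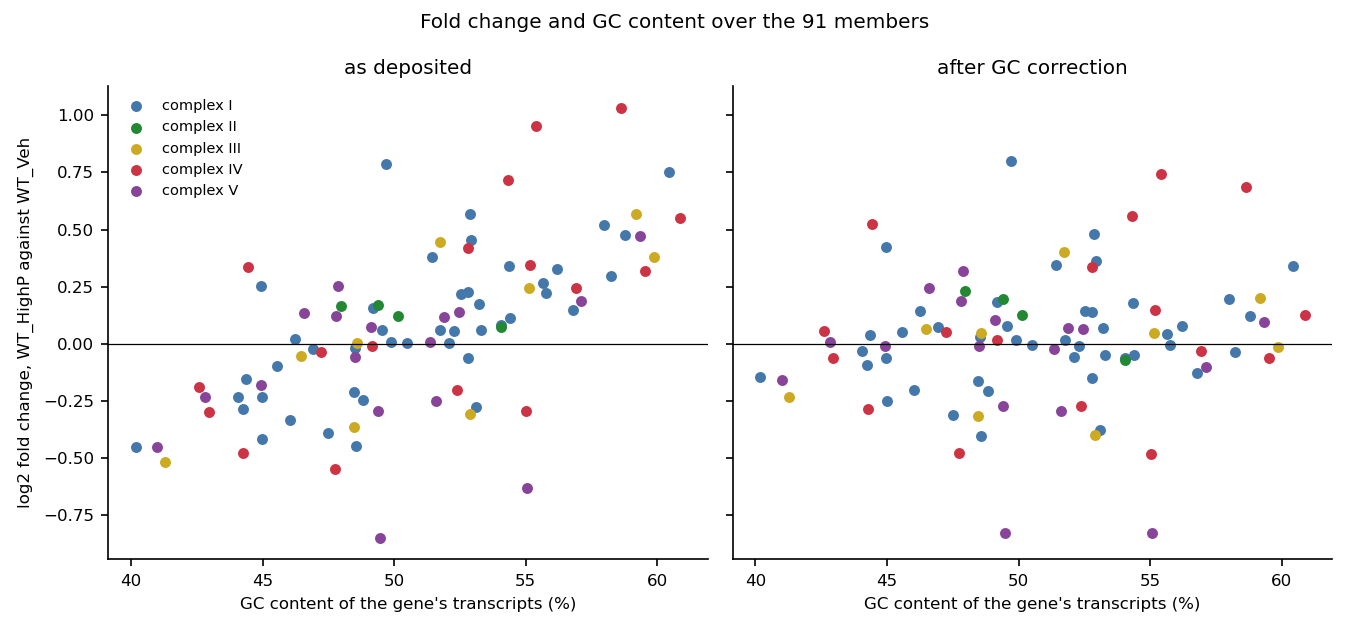
Log2 fold change of WT_HighP against WT_Veh (vertical axis) against GC content (horizontal axis, percent) for the 91 members, coloured by complex, from the deposited values (left) and after removal of each library's GC trend (right). The upward trend on the left (Spearman 0.647) is mostly gone on the right (0.17), where Ndufb6 stays high and Atp5mpl and Atp5k stay low.

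The subunits encoded in mitochondria showed both directions in this comparison. Of 13 such genes, mt-Atp6 (log2 1.25) and mt-Atp8 (log2 1.72), which overlap each other and encode subunits of ATP synthase, were called higher. The 4 called lower were of complex I, among them mt-Nd1 (log2 -0.65) and mt-Nd2 (log2 -0.71). After GC correction none of the 13 was called, and 7 had an unadjusted p under 0.05. The 13 genes made up 5.54% ± 0.339 of reads in WT_Veh and 3.86% ± 0.279 in WT_HighP (SD, n = 5). Members made up 0.663% ± 0.0358 and 0.718% ± 0.0203. In 5xFAD mice the share of the 13 genes ran from 3.80% to 5.76% in AD_Veh, 3.17% to 5.88% in AD_LowP and 3.41% to 4.53% in AD_HighP.

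In WT_HighP against WT_Veh 3.17% of all tested genes were called, which is the background for the counts that follow. Of 35 other assembly factors 1 was called, Cox11 (log2 0.91), a copper chaperone of complex IV. Of 16 genes for electron carriers and exchange across the membrane 1 was called, Slc25a4 (log2 0.46), which exchanges ADP for ATP. Of 14 regulators of mitochondrial biogenesis none was called (limma; 7 at unadjusted p under 0.05), with Ppargc1a, the coactivator PGC-1alpha, at log2 -0.23 (adjusted p = 0.247) and Nrf1, the factor of the core above, at 0.15 (adjusted p = 0.355). Among cell type markers, Rgs5 of mural cells was called lower (log2 -0.54) and no marker of neurons, astrocytes, oligodendrocytes or microglia was called. The 8 excitatory neuron markers summed to 1245 to 1898 FPKM in WT_Veh and 1508 to 2063 in WT_HighP, and their part in the member values was not tested.

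The comparison of 5xFAD with wild-type mice given vehicle asked what the transgenes change. It shares the WT_Veh mice with the comparison above. None of the 91 members was called, against 3.1% of all tested genes, and 7 had an unadjusted p under 0.05, against 1880 of 16450 genes (limma). Groups overlapped for every member, whereas 3.84% of all genes did not overlap. The median was 0.01 over members and -0.02 over all genes, and medians by complex lay between -0.02 and 0.02. In the same mice 5 of 8 microglia markers were called, all higher, among them Trem2 (log2 2.51) and C1qa (log2 2.25), and 2 of 8 astrocyte markers, Gfap (log2 3.69) and Aqp4 (log2 0.93). None of the 8 inhibitory or 8 excitatory neuron markers was called (limma). Inhibitory neuron markers summed to 487 ± 33.2 FPKM in WT_Veh and 412 ± 38.9 in AD_Veh (SD, n = 5), with overlapping ranges, and their part in the member values was not tested.

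The smallest p belonged to Cox7b, a small subunit of complex IV. It measured 41.5, 51.1, 50.02, 54.6 and 57.4 FPKM in WT_Veh and 40.7, 43.5, 46.5, 33.0 and 41.8 in AD_Veh (log2 -0.31, SE 0.12, adjusted p = 0.261). WT_Veh 1 fell within the AD_Veh range. Ndufb6 measured 23.7, 17.8, 17.1, 17.2 and 14.9 FPKM in AD_Veh (log2 0.32 against WT_Veh, adjusted p = 0.383). Both genes are named here after their p-values were seen.

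In 5xFAD mice P was compared with vehicle at both levels, using the same AD_Veh mice, and the levels with each other. Low P called no member and no gene (background 0%), and 4 members had an unadjusted p under 0.05, against 491 of 16450 genes. High P called no member (background 0.00608%, 1 gene), and 3 members had an unadjusted p under 0.05, against 983 genes. High against low P called none (background 0%), with 4 such members and 1019 such genes. The median over members was -0.03 for low P, 0.02 for high P and 0.04 for high against low P. Non-overlap was seen for 1 member with low P (background 0.377%) and for none with high P (background 1.35%) or between the levels (background 0.9%).

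The exception with low P was Cox7a1, the muscle isoform of complex IV, close to the level filter. It measured 0.339, 0.113, 0.343, 0.239 and 0.221 FPKM in AD_Veh and 1.09, 0.626, 0.451, 1.07 and 0.981 in AD_LowP (log2 0.82, SE 0.34, adjusted p = 1 by limma). WT_Veh mice spanned 0 to 1.91 FPKM for the same gene, a range wider than either of these groups. Uqcrh had the smallest p with low P, at 59.9, 58.2, 67.7, 62.9 and 62.6 FPKM in AD_Veh and 64.0, 57.1, 45.1, 43.5 and 51.9 in AD_LowP (log2 -0.26, SE 0.098, adjusted p = 1).

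With high P the smallest p was that of Ndufaf8, an assembly factor of complex I. It measured 6.67, 5.28, 6.74, 3.84 and 5.24 FPKM in AD_Veh and 9.40, 11.5, 7.08, 8.61 and 6.68 in AD_HighP, and AD_HighP 5 lay just inside the AD_Veh range (log2 0.59, SE 0.17, adjusted p = 0.78 by limma). In AD_LowP it was at 6.45 ± 1.37 FPKM (SD, n = 5), and the difference of high from low P was 0.40 (adjusted p = 0.773). In wild-type mice its value with high P was 0.52 (adjusted p = 0.069), with 5.46 ± 0.988 FPKM in WT_Veh and 8.03 ± 1.35 in WT_HighP.

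Whether the response to high P differed between genotypes was tested as an interaction. No member and no gene was called (background 0%), and 6 members had an unadjusted p under 0.05, against 1138 of 16450 genes (limma). The largest departure in p was that of Ndufb6 at -0.69 (SE 0.21, adjusted p = 0.71), with 19.6 ± 4.28 FPKM in AD_HighP against 18.1 ± 3.3 in AD_Veh. Values for Ndufb8 were -0.43 and for Ndufa5 0.35 (adjusted p = 0.71 for each). The members called in WT_HighP were thus not shown to respond differently in 5xFAD mice. Cox8a, for example, measured 273, 253, 190, 116 and 133 FPKM in AD_Veh and 337, 291, 283, 217 and 161 in AD_HighP, which overlap, and 147, 220, 141, 258 and 286 in AD_LowP.

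Sums over the complexes show the spread that these comparisons faced. Complex IV had the widest, with 1031 ± 115 FPKM for WT_Veh mice and 1287 ± 161 for WT_HighP mice (SD, n = 5). In the 5xFAD mice it was 1082 ± 120 with vehicle, 1100 ± 164 with low P and 1178 ± 141 with high P (SD, n = 5). In WT_HighP its 5 sums were 1402, 1409, 1260, 1344 and 1019 FPKM, the last inside the WT_Veh range of 935 to 1166. Complex I varied from 1052 ± 63.5 in AD_Veh to 1141 ± 47.0 in WT_HighP, complex III from 422 ± 39.9 in AD_LowP to 446 ± 21.3 in WT_HighP, and complex V from 857 ± 41.9 in WT_Veh to 893 ± 31.2 in WT_HighP. As shares of all member FPKM, complex IV took 28.9% ± 1.44 in WT_Veh and 32.4% ± 2.35 in WT_HighP, and complex III 12.4% ± 0.259 and 11.3% ± 0.285. The lower share of complex III was not a lower sum, which was 444 ± 33.9 FPKM in WT_Veh and 446 ± 21.3 in WT_HighP.

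**Figure D5:**
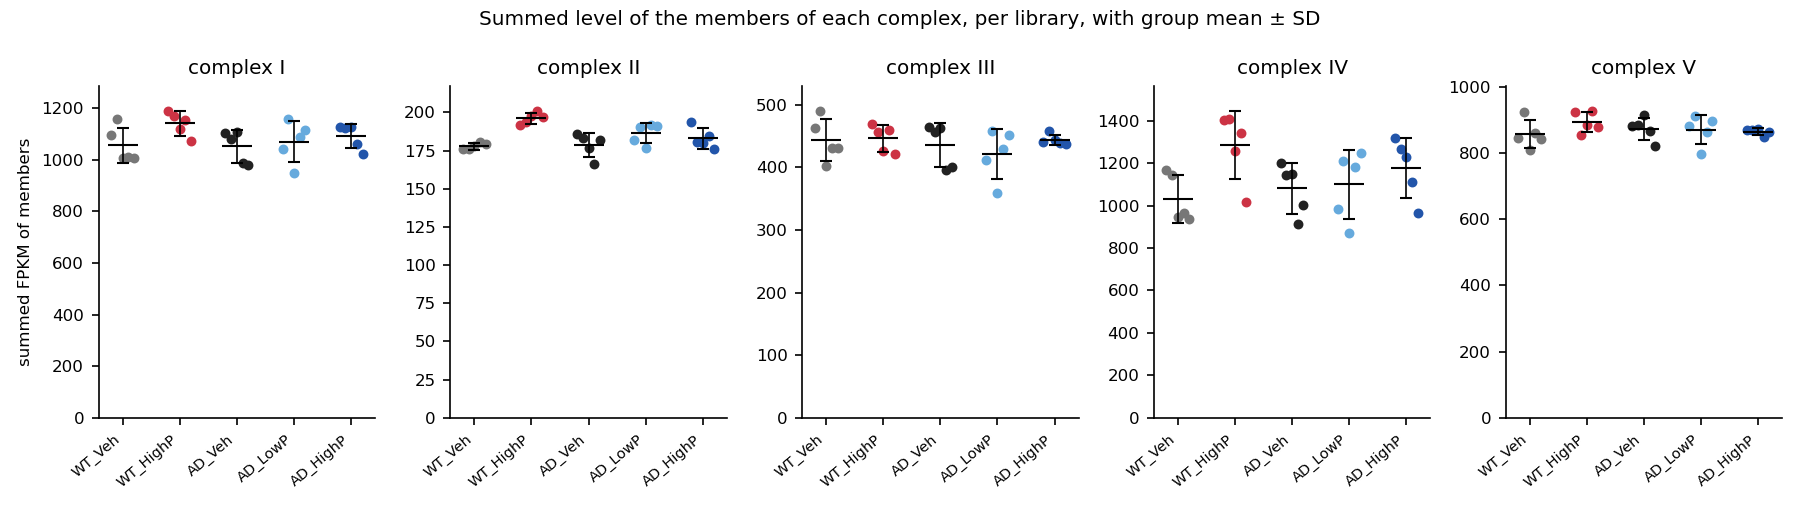
Summed FPKM of the members of complexes I to V (one panel each, vertical axes from 0) in each of the 25 libraries, with group mean and SD. Complex II separates WT_HighP (192 to 201) from WT_Veh (176 to 180), while the sums of the other complexes overlap between these groups. In 5xFAD mice the complex II sums overlap, at 166 to 186 in AD_Veh, 177 to 192 in AD_LowP and 176 to 194 in AD_HighP.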

How the data were processed

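Cortex RNA of 25 mice in 5 groups of 5 was sequenced in strand-specific, poly(A)-selected libraries, per the labels' protocols. Alignment was to mm10 with HISAT2, per the submitters' processing notes. Version, counting tool and annotation were not given in the sources used here. The deposited file holds FPKM values that the authors computed, with gene lengths. FPKM times length gave whole multiples of a per-library step for 100% of nonzero values (tolerance 0.01 of a read), so reads (15518358 to 17698222 per library) could be recovered.

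Genes with at least 0.5 FPKM in 5 of 25 libraries (16450) were fitted as log2(FPKM + 0.5) with limma 3.58.1 in R 4.3.3 (data.table, version 1.17.8), a mean per group, all 25 libraries and intensity-trended variances. Tests were two-sided, with Benjamini-Hochberg adjustment per contrast and calls at 0.05. Fold changes on this scale understate low genes. The fit was tested on simulated counts of independent genes, without a GC trend and with larger changes than most members called here. That test therefore does not bear on these calls. Members and lists were chosen with earlier results of these data known. Named were members called in any contrast, the highest and lowest of each complex, catalytic subunits, isoform families, c-ring genes and genes at the level filter; others are said to be chosen on their values. A value that this rule would name is not reported here. GC content came from a GENCODE annotation that matched 54409 of the identifiers and was known for 99.9% of tested genes. Alternatives covered pseudocount, filter, GC and length trends, replicate block, libraries left out, sex, weights, voom on recovered reads and scaling. Sums over members are given without a test. Gene coordinates are those of the deposited file.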

Additional observations from a re-analysis of the deposited data

Results flagged for a closer look

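Of 200 groups of 5 values examined (complex sums, read share and FPKM of named members), 6 held a value whose gap to the nearest other exceeded 0.71 of the group's range, where chance gives about 1 in 20. Ndufb6 stood low in WT_Veh 4, at 10.05 FPKM against 14.6 to 16.3 in the other 4 mice, and Atp5mpl stood high in WT_Veh 2, at 31.18 against 19.5 to 22.1. Both lie on the side away from WT_HighP. Mouse 5 accounted for the other 4. In WT_HighP it was low for Cox4i1 (165 FPKM against 196 to 199) and Cox7a2 (57.43 against 66.2 to 68.1), and in AD_Veh, a different animal, it was low for Atp5b (174.3 against 203 to 210) and Cox4i1 (143.3 against 161 to 168).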

How the results depend on the processing

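The number of members called in WT_HighP against WT_Veh, 11, became 0 with no level filter, 1 with GC correction (also together with the replicate block), 7 with a replicate block, 26 with only the groups of the contrast, 38 with array weights, 0 without the 4 libraries highest in Ttr and 5 with GC and length correction, the last chosen after seeing the data. Over all genes, array weights called 3371 and the contrast's own groups 1513. Counts over all genes are not given for the replicate block, for GC and length correction or for single libraries left out. Leaving out 1 library gave 0 to 31. Array weights called 1 member in AD_Veh against WT_Veh, and the count was 0 in every other alternative of the other 5 contrasts. The complex IV median in WT_HighP was 0.052 with GC correction, 0.052 with replicate block and GC correction, 0.025 with GC and length correction, and 0.085 to 0.36 on leaving out 1 library. The complex II median of high against low P was -0.054 with GC and length correction. Without the Ttr-high libraries the interaction medians were -0.17 in complex II and 0.019 in complex V, and that of complex IV ran from -0.16 to 0.026 on leaving out 1 library. Scaled to total reads, added after seeing the data, AD_HighP sums were 457 FPKM in complex III and 890 in complex V. Of 924 alternative medians, 916 moved by less than 1 SD between mice. That SD is of single mice, so a median can reach 0 or change sign within it. The median over members in WT_HighP, for example, ran from 0.0023 to 0.078 within this margin.

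Signs reversed in WT_HighP for Atp5g2, Cyc1, Ndufs1 and Sdhb under GC correction, GC with replicate block, or GC and length correction. The values were -0.10, -0.10 and -0.12 for Atp5g2, -0.015, -0.015 and -0.021 for Cyc1, 0.039, 0.039 and 0.048 for Ndufs1 and -0.073, -0.073 and -0.079 for Sdhb. Uqcrfs1, near 0 in the main comparison, was -0.039 with array weights and -0.025 to 0.046 on leaving out 1 library. The cause was not tested. Same-numbered mice correlated above 0.1 in 0 of 5 pairs of WT_Veh with WT_HighP and 2 of 5 of WT_Veh with AD_Veh. For AD_Veh it was 1 of 5 with AD_LowP and 2 of 5 with AD_HighP, and for AD_LowP with AD_HighP 0 of 5. In AD_HighP, 3 of 5 mice correlated best with the AD_Veh mouse of their own number. The GC slope fell at each step from mouse 1 to mouse 5 in WT_Veh (0.078 to -0.31), AD_Veh (0.12 to -0.27) and AD_HighP (0.19 to -0.091). It rose at each step in AD_LowP (-0.30 to 0.17) and followed neither order in WT_HighP. The cause of this order was not tested. The labels name no shared source, so what else mice of the same number share is not known. At this depth, with 5 mice a group, the median SE of a member's log2 fold change was 0.12.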
